A study of Mus musculus with 22 samples.

Results

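The genes described here encode desmosomes, the spot-like junctions that rivet epithelial cells together, in mouse duodenal organoids exposed to cold atmospheric plasma (CAP). The 10 genes Dsg2, Dsg3, Dsc2, Dsp, Pkp1, Pkp2, Pkp3, Jup, Evpl and Ppl were taken by gene symbol from the 52636 genes of the expression table. All 10 were found, each as 1 row, and all 10 passed the filter on low values in all 14 comparisons. The choice used no measured value of these libraries, although results of the same data were known when it was made.

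A desmosome is built in layers. Desmogleins (Dsg genes) and desmocollins (Dsc genes) are cadherins that span the membrane and bind the cadherins of the neighbouring cell. Inside the cell, plakoglobin (Jup) and the plakophilins (Pkp genes), which are armadillo-repeat proteins, sit on the cadherin tails and hold desmoplakin (Dsp), which anchors keratin filaments. Envoplakin (Evpl) and periplakin (Ppl) are plakins related to desmoplakin that are best known from the cornified envelope of stratified epithelium. Simple epithelia such as the intestine use chiefly desmoglein 2 and desmocollin 2, whereas desmoglein 3 and plakophilin 1 are typical of stratified epithelia such as skin and the lining of the mouth.

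The organoids were grown from the duodenum of adult wild-type mice of the outbred CD1 strain, and each organoid line came from 1 mouse. The 22 libraries hold 4 untreated libraries (lines 1 to 4) and 3 libraries (lines 1, 2 and 4) in each of 6 treated groups. Line 3 was sequenced only untreated. The labels give passage 12 for line 1, passage 14 for line 2 and passage 4 for lines 3 and 4. In direct CAP, the jet treated the day 1 culture itself, whose medium was changed 30 min or 24 h afterwards. In indirect CAP, organoids received medium taken from another treated culture, and in PAM (plasma-activated medium) they received medium treated without organoids, in both cases for 24 h from day 1 or from day 2. Collection was at day 3 by the study's design, so the groups treated from day 2 were collected at the end of the exposure and those treated from day 1 after a further day in fresh medium. For the 30 min group the time of collection is less certain. The labels give other exposure times for indirect CAP and PAM (30 min from day 1, 24 h from day 2), and the study's own times are used here.

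Values are in CP20M, the number of reads a gene had among 20 M reads counted in its library, with no division by gene length. They are shares of a library, so a higher value means more reads relative to all other genes. The reads counted per library were estimated at 19.4 to 28.7 M (median 22.5). Markers of intestinal epithelium were high in all libraries. The 8 markers fixed for it summed to between 118766 and 200076 CP20M, and the proximal intestinal factors Gata4 and Pdx1 to between 4647 and 6897. Fibroblast markers summed to at most 17 CP20M and muscle markers to at most 19, and none of these 10 genes passed the filter in the main comparison. The summed level of 5 stem cell markers (Lgr5, Olfm4, Smoc2, Axin2 and Ascl2) was 32557 to 38876 in untreated organoids and 757 to 2747 with day 2 PAM, with no overlap. In bulk RNA, fewer cells of a type and less RNA per cell cannot be told apart, and the part of this shift in the values below was not tested. Libraries of the same line deviated together from their group means in all 45 pairs of treated libraries (correlation 0.219 to 0.806). The untreated libraries of lines 1 and 2 did not follow their labels as well. The one labelled line 1 correlated at a median of 0.0753 with treated line 1 and of 0.54 with treated line 2, and the one labelled line 2 had 0.132 with line 2 and 0.354 with line 1. Group comparisons that ignore the line do not depend on these labels.

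In untreated organoids the 10 genes spanned 3 orders of magnitude in level per length. Dsp had the highest level, 1892 CP20M per kb of exon on average, and its lowest library (1750) was above every library of any other member. Jup (1050 per kb) and Dsg2 (1011 per kb) came next, and their ranges overlapped. Dsc2 followed with 781 per kb, below every Dsg2 library. Among the plakophilins the level per kb was 570 for Pkp3, 395 for Pkp2 and 261 for Pkp1, with no overlap between these 3. Ppl (178 per kb) overlapped with Pkp1, and Evpl (84.5 per kb) lay below both. Dsg3 was last at 1.33 per kb. Without treatment, Dsg2 and Dsc2 were thus the cadherin transcripts at the higher levels and Pkp3 the plakophilin transcript at the highest.

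**Figure D1:**
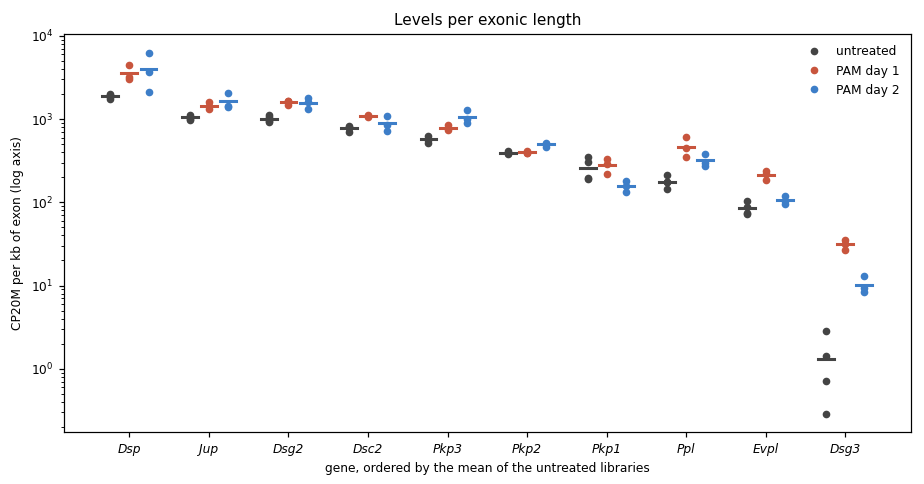
Level of each gene per kb of exon (CP20M per kb, log axis) in the 4 untreated libraries, the 3 PAM libraries from day 1 and the 3 from day 2; points are libraries and bars are group means. Dsp was highest and Dsg3 lowest in all 3 groups, with Dsg3 at a mean of 1.33 per kb untreated and 31.3 per kb with day 1 PAM.

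The main comparison set the 3 groups with 24 h of exposure from day 1 (24 h direct CAP, indirect CAP and PAM, 9 libraries) against the 4 untreated libraries. The 9 libraries are the same 3 lines under each treatment and were fitted as independent. A gene was called if its adjusted p (Benjamini-Hochberg, over all genes) was below 0.01 and its mean log2(CP20M + 1) differed by 1 or more. Of the 10 genes, 2 were called higher, Dsg3 and Ppl, and 0 lower. Among all 18490 genes tested, 4.27% were called higher and 2.07% lower. Dsg3 passed the filter only through the treated libraries, which favours a higher call. At the looser level, an adjusted p under 0.05 whatever the fold, 7 of the 10 were higher (Dsg2, Dsg3, Dsp, Pkp3, Jup, Evpl and Ppl), against 14.8% of all genes. In 6 of the 10 (Dsg2, Dsg3, Dsp, Pkp3, Evpl and Ppl) every treated library was above every untreated library, which held for 7.16% of all genes. The median log2 fold change was 0.45 over the 10 genes and -0.05 over all genes. With the organoid line as a block, the number at an adjusted p under 0.05 was 5, without Dsp (adjusted p = 0.0577) and Jup (adjusted p = 0.0857). Log2 fold changes ranged from -0.0034 for Pkp2 to 3.85 for Dsg3.

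**Figure D2:**
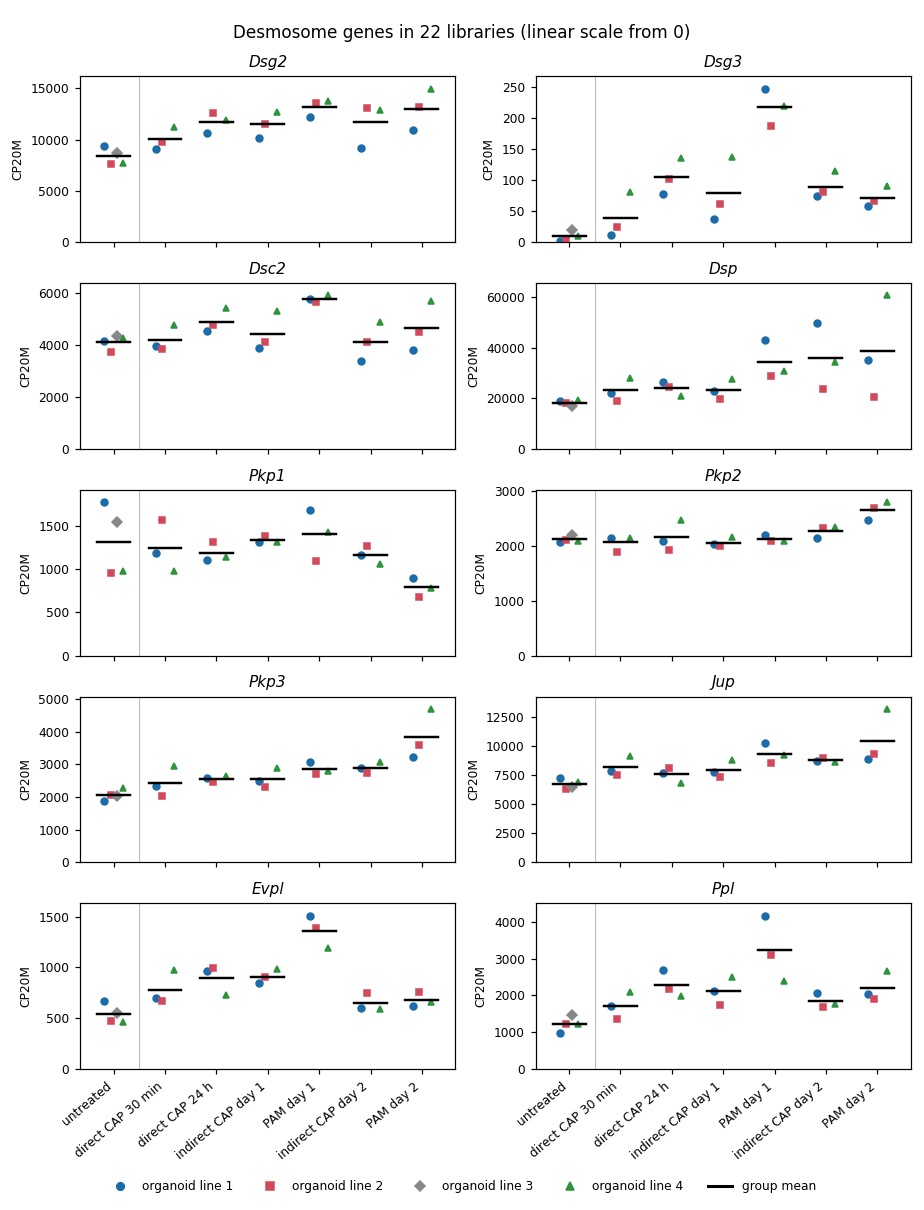
CP20M of each of the 10 genes in the 22 libraries, on linear axes that start at 0; symbols mark the organoid line and bars the group means. Dsg3 was at 2 to 20 in untreated libraries and at 188 to 248 with day 1 PAM, and with day 2 PAM Pkp1 lay below and Pkp2 above all untreated libraries.

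Among the cadherins, Dsg2 is the desmoglein that intestinal epithelium normally uses. It lies at chr18:20558074-20604521 (GRCm38, plus strand). Untreated libraries held 9362, 7662, 8671 and 7730 CP20M (lines 1 to 4). After 24 h from day 1, the 9 treated libraries ranged from 10152 to 13735 with a median of 12171. The groups did not overlap. The mean was 12126 ± 1216 (SD, n = 9) against 8356 ± 813 (SD, n = 4), a log2 fold change of 0.54 (SE 0.09, 95% interval 0.34 to 0.73, adjusted p = 0.00102). This is a ratio of means of 1.45, below the fold the threshold asks for. By group, the ratio to untreated was lowest after 30 min direct CAP (1.20) and highest with day 1 PAM (1.58), and it lay between 1.37 and 1.56 in the other 4 groups. The ranges of neighbouring groups in that order overlapped throughout. An antisense gene, Gm16090, shares 330 exonic bases with Dsg2 on the opposite strand, and its value was 11.6 to 12.9% that of Dsg2 in every library. The strand setting of the counting is not given in the sources used here, so reads of the pair cannot be told apart in the shared stretch.

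Dsg3, the desmoglein known as an antigen of pemphigus vulgaris and typical of stratified epithelium, lies beside Dsg2 at chr18:20510274-20547459. It changed most. The untreated libraries held 2, 5, 20 and 10 CP20M in lines 1 to 4. A 24 h exposure to direct CAP gave 77, 101 and 135 in lines 1, 2 and 4, and day 1 indirect CAP gave 37, 62 and 137. Day 1 PAM gave 248, 188 and 219. All 9 of these libraries were above all untreated libraries, and those of PAM were above all others in the data set. The log2 fold change was 3.85 (SE 0.53, 95% interval 2.72 to 4.97, adjusted p = 0.000261), and with a pseudocount of 10 in place of 1 it was 2.80 (adjusted p = 0.000345). Because 2 of the untreated values were under 10, Dsg3 passed the filter only through the treated libraries, so a lower call was hardly open to it. Its fold rests on a small number of reads in the controls.

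Each treated group was also set against the untreated libraries by itself. Dsg3 was called higher with day 1 PAM (log2 fold change 4.76, SE 0.59, adjusted p = 0.000581), after 24 h direct CAP (3.68, SE 0.61, adjusted p = 0.00762), with day 2 indirect CAP (3.47, SE 0.60, adjusted p = 0.00234) and with day 2 PAM (3.15, SE 0.61, adjusted p = 0.00416). The day 2 libraries held 75, 80 and 114 CP20M for indirect CAP and 58, 66 and 90 for PAM. Day 1 indirect CAP missed the threshold with an adjusted p of 0.019 and a log2 fold change of 3.11 (SE 0.68), and it passed with the organoid line as a block (3.57, adjusted p = 0.00424). That block fit leaves untreated line 3, the highest control (20 CP20M), out of the fold, so the gain is not due to pairing alone. The call after 24 h direct CAP was lost when any 1 of 6 of the 7 libraries was left out (all but untreated line 3), with adjusted p up to 0.0253. With day 2 PAM it was lost without untreated line 2 or without PAM line 1, 2 or 4 (adjusted p up to 0.0142), and with day 2 indirect CAP without line 4 of that group (adjusted p = 0.0106). With day 1 PAM it remained without any 1 library.

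Dsc2, the desmocollin of simple epithelia (chr18:20030633-20059554, minus strand), is the usual partner of Dsg2. Untreated libraries held 4137, 3730, 4328 and 4280 CP20M, and those with day 1 PAM held 5775, 5642 and 5914 in lines 1, 2 and 4. All 3 lay above the untreated libraries, and above every other treated library except line 4 of day 2 PAM (5690). The log2 fold change was 0.49 (SE 0.08, adjusted p = 0.00177). In the other 5 treated groups the fold was between -0.01 and 0.25 with adjusted p of at least 0.103, and over the 3 day 1 groups together it was 0.28 (95% interval 0.04 to 0.52, adjusted p = 0.0702). The ratio of Dsg2 to Dsc2 per length was 1.30 ± 0.12 (SD, n = 4) in untreated organoids. It was 1.53 ± 0.077 (n = 3) after 30 min direct CAP, 1.53 ± 0.15 after 24 h direct CAP, 1.46 ± 0.10 with day 1 PAM, 1.67 ± 0.13 with day 1 indirect CAP, and 1.81 ± 0.18 and 1.79 ± 0.10 with day 2 indirect CAP and day 2 PAM. In 4 of the 6 groups every library was above every untreated library (1.15 to 1.44), namely 30 min direct CAP (1.47 to 1.62), day 1 indirect CAP (1.54 to 1.80) and both day 2 groups (1.68 to 2.02), and the other 2 overlapped with it. These ratios were not tested.

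Dsp, the plakin that links the plaque to keratin filaments, is at chr13:38151294-38198577 (plus strand) and had the highest mean per length of the members in every group. The untreated libraries held 18868, 17993, 16899 and 19352 CP20M, a narrow range. With day 1 PAM they held 43094, 29018 and 30765 in lines 1, 2 and 4, with day 2 indirect CAP 50049, 23768 and 34462, and with day 2 PAM 35055, 20624 and 60833. All 9 lay above the untreated libraries, but they spread widely, with line 2 lowest in each of these groups. The log2 fold changes were 0.89 (SE 0.15, adjusted p = 0.00202), 0.92 (SE 0.22, adjusted p = 0.00975) and 0.95 (SE 0.31, adjusted p = 0.0347), so no group reached the fold of the threshold. For day 2 PAM the adjusted p was 0.0606 under quantile normalization. Without line 2, Dsp was called higher with day 2 indirect CAP (1.19, adjusted p = 0.00122) and with day 2 PAM (1.34, adjusted p = 0.00392). Without line 4 the value for day 2 PAM was 0.56 (adjusted p = 0.0497), and the adjusted p was 0.05 or more, up to 0.079, without line 1 or without any 1 untreated library. In the other groups of day 1 the log2 fold changes were 0.38 for 24 h direct CAP (adjusted p = 0.0507) and 0.34 for indirect CAP (adjusted p = 0.0798). Gm10129, annotated on the opposite strand, shares 499 exonic bases with Dsp, and its value was 3.78 to 4.49% that of Dsp. Reads of this pair cannot be told apart in the shared stretch either.

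Jup encodes plakoglobin, which also serves adherens junctions, and lies at chr11:100368958-100397763 (minus strand). Untreated libraries held 7273, 6349, 6527 and 6887 CP20M. With day 1 PAM the values were 10268, 8570 and 9237, and with day 2 PAM 8917, 9334 and 13216. Neither group overlapped with the untreated libraries. The log2 fold changes were 0.47 (SE 0.09, adjusted p = 0.00431) and 0.61 (SE 0.14, adjusted p = 0.00952), and that with day 2 indirect CAP was 0.38 (SE 0.07, adjusted p = 0.00362). A 24 h exposure to direct CAP gave 0.16 (95% interval -0.05 to 0.38, adjusted p = 0.281) and overlapped with the untreated libraries.

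The plakophilins tie the cadherins to desmoplakin and differ in where they are used. Pkp3, the plakophilin found in simple and stratified epithelia alike (chr7:141078218-141090510, plus strand), was at 1880, 2058, 2023 and 2288 CP20M in untreated lines 1 to 4 and at 3222, 3603 and 4694 with day 2 PAM. Those PAM libraries were above every other library in the data set. The log2 fold change was 0.88 (SE 0.14, adjusted p = 0.00169), against 0.47 with day 1 PAM (SE 0.09, adjusted p = 0.00398) and 0.49 with day 2 indirect CAP (SE 0.08, adjusted p = 0.00228). Over the 3 day 1 groups together it was 0.36 (SE 0.08, adjusted p = 0.00399), with no overlap between 2310 to 3068 and the untreated 1880 to 2288.

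Pkp2, the plakophilin of heart muscle and simple epithelia (chr16:16213318-16272712, plus strand), differed little in the day 1 groups. Its mean was 2120 ± 62.6 (SD, n = 4) untreated and 2119 ± 160 (SD, n = 9) after 24 h of exposure from day 1, a log2 fold change of -0.0034 with a 95% interval of -0.15 to 0.14, and of 0.031 under quantile normalization, so its direction depends on the scaling. With day 2 PAM the libraries held 2482, 2688 and 2802, above all untreated libraries (2066 to 2208), for a log2 fold change of 0.32 (SE 0.08, adjusted p = 0.0125).

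Pkp1, the plakophilin of stratified epithelia (chr1:135871395-135919207, minus strand), was at 1775, 952, 1544 and 977 CP20M in untreated lines 1 to 4, a wide spread. With day 2 PAM it was at 902, 676 and 785, below every untreated library. The log2 fold change of -0.69 (SE 0.24, 95% interval -1.24 to -0.14) had an adjusted p of 0.043, and it was the 1 member with a lower value at that level. In the same comparison 29.1% of all genes were lower at an adjusted p under 0.05. Under quantile normalization the value was -0.52 with an adjusted p of 0.111, and without the filter the adjusted p was 0.0612. In the other 5 groups the log2 fold change of Pkp1 lay between -0.12 and 0.13 with adjusted p of at least 0.69.

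Seen as shares of the 3 plakophilins per length, Pkp3 made up 46.6 ± 4.9% (SD, n = 4) in untreated organoids and 61.6 ± 3.8% (SD, n = 3) with day 2 PAM. Pkp1 made up 21.1 ± 5.9% and 9.28 ± 2.1%. Pkp2 stood at 32.3 ± 1.5% and 29.1 ± 2.3%. The PAM libraries from day 2 (Pkp3 58.1 to 65.7%, Pkp1 7.90 to 11.7%) did not overlap with the untreated ones (Pkp3 41.3 to 52.0%, Pkp1 16.0 to 28.1%). The Pkp3 share also lay wholly above the untreated range with day 1 PAM (53.2 to 55.1%) and day 2 indirect CAP (52.4 to 56.6%), whereas the Pkp1 share of these 2 groups overlapped with it (16.1 to 21.1% and 14.2 to 17.5%).

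**Figure D3:**
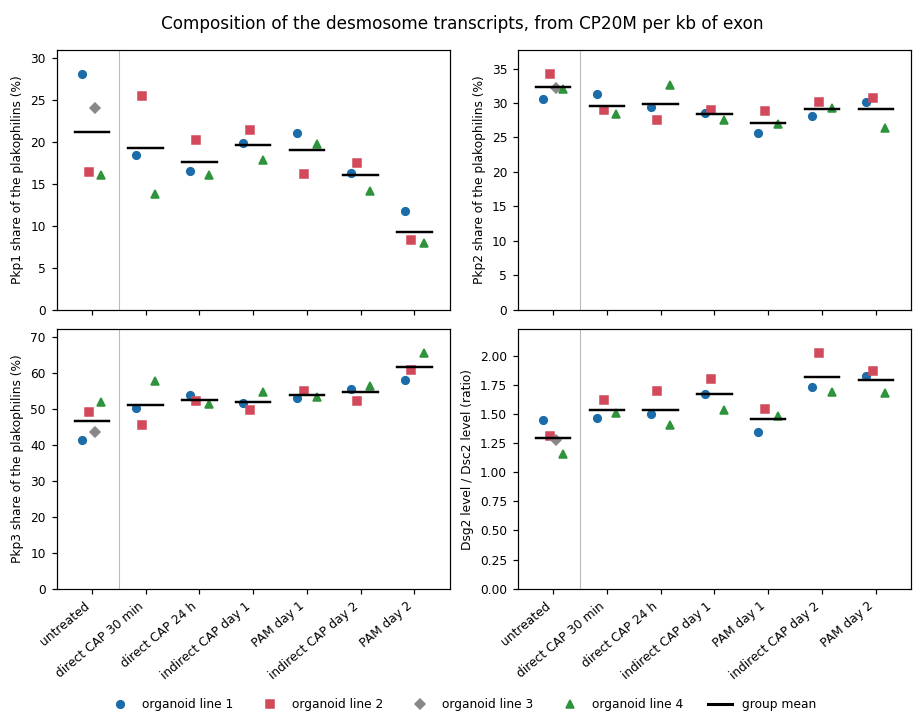
Share of each plakophilin in the sum of the 3 plakophilins (percent, from CP20M per kb of exon) and ratio of the Dsg2 level to the Dsc2 level, by group; symbols are organoid lines, bars are group means and all axes start at 0. With day 2 PAM the Pkp1 share was at 7.90 to 11.7% and the Pkp3 share at 58.1 to 65.7%, and the Dsg2 to Dsc2 ratio lay above that of all untreated libraries with 30 min direct CAP, day 1 indirect CAP and both day 2 groups.

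Evpl and Ppl, partner plakins of the cornified envelope, are at chr11:116220559-116238077 and chr16:5086291-5132421, both on the minus strand. Untreated libraries held 666, 475, 556 and 460 CP20M of Evpl. With day 1 PAM they held 1510, 1385 and 1196, above all other libraries in the data set. Evpl was called higher there (log2 fold change 1.35, SE 0.15, adjusted p = 0.000362), whereas in the 3 day 1 groups together it stood at 0.95 (SE 0.17, adjusted p = 0.00138), just under the fold of the threshold, and it passed under quantile normalization (1.03), without untreated line 1 (1.05) and without line 4 of 24 h direct CAP (1.01). The groups of day 2 held 599, 746 and 596 for indirect CAP and 616, 754 and 656 for PAM, which overlapped with the untreated range. Their log2 fold changes were 0.27 (95% interval -0.07 to 0.61) and 0.33 (95% interval -0.02 to 0.69), with adjusted p of 0.173 and 0.104. Under quantile normalization the value for day 2 PAM was 0.58 with an adjusted p of 0.0162.

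Ppl was at 986, 1214, 1474 and 1221 CP20M in untreated lines 1 to 4. Day 1 PAM gave 4164, 3101 and 2396 in lines 1, 2 and 4, 24 h direct CAP gave 2700, 2160 and 1982, and day 1 indirect CAP gave 2116, 1736 and 2492. All were above the untreated libraries. Over these 3 groups Ppl was called higher (log2 fold change 1.02, SE 0.19, adjusted p = 0.00141). The fold sits on the threshold and was under 1 (0.92 to 0.98) without untreated line 1 or without PAM line 1 or 2. It was called with day 1 PAM by itself (1.37, SE 0.19, adjusted p = 0.00105). Unlike Evpl, Ppl was above the untreated libraries in both day 2 groups as well, at 0.60 (SE 0.14, adjusted p = 0.00781) for indirect CAP and 0.84 (SE 0.16, adjusted p = 0.00418) for PAM.

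Counted by group, day 1 PAM had the most calls. Dsg3, which passed the filter only through the treated libraries, is among the calls of each group that had any. There 3 of the 10 genes were called higher (Dsg3, Evpl and Ppl) against 4.83% of all genes, and 8 (all but Pkp1 and Pkp2) were higher at an adjusted p under 0.05 against 15.2%. A 24 h exposure to direct CAP had 1 call (Dsg3, against 1.25%) and 5 at the looser level (Dsg2, Dsg3, Pkp3, Evpl and Ppl, against 7.05%), of which Dsg2 (adjusted p = 0.0633) and Pkp3 (adjusted p = 0.12) were lost with the line as a block. Day 1 indirect CAP had 0 calls (against 0.831%) and 4 at the looser level (Dsg2, Dsg3, Evpl and Ppl, against 10.2%), and 7 of the 10 genes had an unadjusted p under 0.05, against 38.6% of all genes. Day 2 indirect CAP had 1 call (Dsg3, against 6.2%) and 6 at the looser level (Dsg2, Dsg3, Dsp, Pkp3, Jup and Ppl, against 20.3%), of which Dsg2 (adjusted p = 0.0715) was lost with the block. Day 2 PAM had 1 call (Dsg3, against 6.82%) and 7 at the looser level (Dsg2, Dsg3, Dsp, Pkp2, Pkp3, Jup and Ppl, against 18.5%). Of the 38 results at the looser level in the pooled and group comparisons, 28 stayed under 0.05 whichever 1 library was left out. The others, beside Dsp with day 2 PAM, were Dsp (without untreated line 2 or 3) and Jup (without untreated line 2, 3 or 4, indirect CAP line 4 or PAM line 2 or 4) in the 3 day 1 groups together, with adjusted p up to 0.0638 and 0.0987. After 24 h direct CAP they were Dsg2 (without untreated line 2 or 4, up to 0.057), Evpl (also without line 1 of that group, up to 0.0668) and Pkp3 (without untreated line 1, 2 or 3 or line 1 or 4 of that group, up to 0.106). Dsg2 was lost without untreated line 2 or 4 or treated line 2 or 4 with indirect CAP, both from day 1 (up to 0.0699) and from day 2 (up to 0.0806), and Dsg3 with day 1 indirect CAP without untreated line 2 or treated line 4 (up to 0.0616). Pkp1 with day 2 PAM was lost without untreated line 1 or 3 or any 1 PAM library (up to 0.123). All of these comparisons share the 4 untreated libraries, so they are not independent of each other. With day 2 PAM, all genes had a median log2 fold change of -0.118, and quantile normalization brought it to 0.000267. The values of the 10 genes kept their signs under it there.

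**Figure D4:**
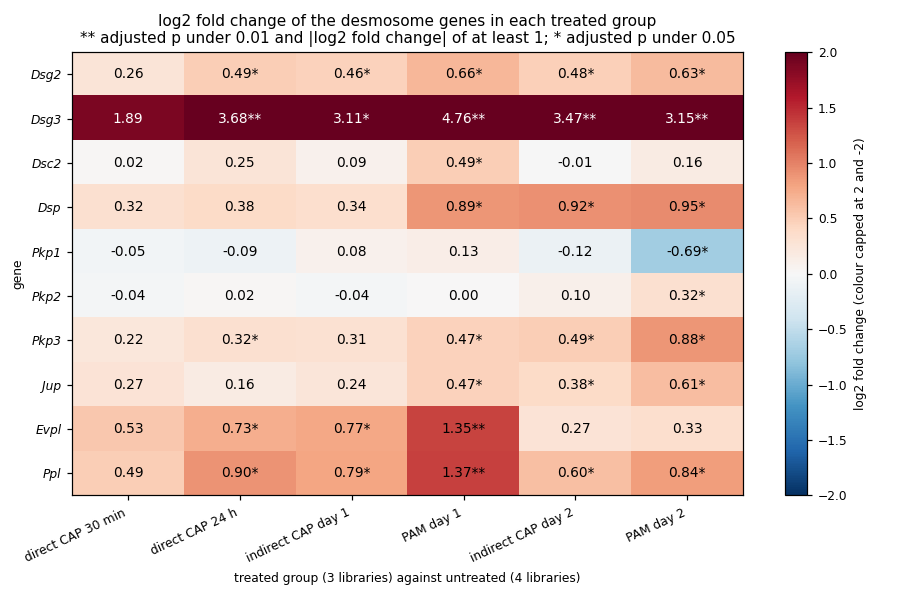
Log2 fold change of each gene (rows) in each treated group against untreated (columns), with the value printed and colour capped at 2 and -2; 2 asterisks mark genes past the threshold (adjusted p below 0.01, 1 or more on the log2 scale) and 1 asterisk an adjusted p under 0.05. Dsg3 was the top value in every column, at 1.89 to 4.76, and the PAM column of day 1 held 3 of the doubly marked cells.

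After 30 min direct CAP, 0 of the 10 genes were called by limma at either level, and 6 had an unadjusted p under 0.05 (Dsg2, Dsg3, Dsp, Jup, Evpl and Ppl, all with a higher mean). Of all genes, 24.9% had an unadjusted p under 0.05 in either direction, and 0.00564% were higher at either level in that comparison. Dsg3 was at 12, 24 and 80 CP20M in lines 1, 2 and 4, which overlaps with the untreated 2 to 20, for a log2 fold change of 1.89 (SE 0.77, adjusted p = 0.179). Within each of the 3 lines the 30 min library was above the untreated one. Evpl (674 to 971 against 460 to 666) and Jup (7482 to 9132 against 6349 to 7273) did not overlap with the untreated libraries, with log2 fold changes of 0.53 (SE 0.17, adjusted p = 0.121) and 0.27 (SE 0.09, adjusted p = 0.134). Between 24 h and 30 min of direct CAP, 0 of the 10 genes passed the threshold, against 0% of all genes, and Dsg3 alone had an unadjusted p under 0.05, against 21.4% of all genes (log2 fold change 1.79, SE 0.62, adjusted p = 0.205). With the line as a block it was higher after 24 h with an adjusted p of 0.024, where 8.14% of all genes reached an adjusted p under 0.05 in either direction.

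The ways of delivering the plasma were also compared with each other at day 1. Indirect CAP and 24 h direct CAP differed in 0 of the 10 genes and in 0% of all genes at the threshold, and 0 of the 10 had an unadjusted p under 0.05, against 6.95% of all genes. For Dsg2 the difference was -0.03 (95% interval -0.34 to 0.27) and for Dsg3 -0.57 (95% interval -1.65 to 0.51), so a difference within these limits is not shown to be absent. PAM against 24 h direct CAP also gave 0 calls (0% of all genes). In 4 of the 10 (Dsg3, Dsp, Jup and Evpl) PAM was higher at an unadjusted p under 0.05, against 10.4% of all genes in either direction, with log2 fold changes of 1.09 (SE 0.24, adjusted p = 0.274) for Dsg3 and 0.62 (SE 0.16, adjusted p = 0.356) for Evpl. With the line as a block these 2 genes had adjusted p of 0.0239 and 0.0237, and 2.9% of all genes were under 0.05. PAM against indirect CAP gave 0 calls (0% of all genes) and 5 genes at an unadjusted p under 0.05 (Dsg3, Dsc2, Dsp, Evpl and Ppl), each higher with PAM, against 21.7% of all genes in either direction. With the block, Dsg3 (1.66, adjusted p = 0.0294), Dsc2 (0.40, adjusted p = 0.0389) and Evpl (0.58, adjusted p = 0.026) were under 0.05, as were 18% of all genes.

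The start of the conditioned medium was compared between day 2 and day 1. For day 2 PAM against day 1 PAM, 0 of the 10 genes passed the threshold (0% of all genes). Evpl had a log2 fold change of -1.01 (SE 0.14, 95% interval -1.34 to -0.68, adjusted p = 0.0503), Dsg3 -1.62 (SE 0.23, adjusted p = 0.0503) and Pkp1 -0.82 (SE 0.19, adjusted p = 0.0694). Pkp2 and Pkp3 pointed the other way, at 0.32 (SE 0.10, adjusted p = 0.105) and 0.41 (SE 0.16, adjusted p = 0.154). Each of these genes had an unadjusted p under 0.05 by limma, as did 4651 of 17354 genes tested. With the line as a block, Dsg3 (adjusted p = 0.0261), Pkp1 (0.0242) and Evpl (0.0246) were under 0.05, as were 10.6% of all genes. For day 2 indirect CAP against day 1, 0 of the 10 genes passed (0.0111% of all genes), and Evpl was at -0.50 (SE 0.12, adjusted p = 0.0758). With the block Evpl (adjusted p = 0.00557) and Dsp (0.58, adjusted p = 0.0218) were under 0.05, as were 23.6% of all genes. Day 2 PAM and day 2 indirect CAP differed in 0 of the 10 genes and in 0% of all genes, with 2 genes at an unadjusted p under 0.05 (against 9.48%), Pkp1 (-0.57, adjusted p = 0.523) and Pkp3 (0.39, adjusted p = 0.523). The groups of day 1 and day 2 differ both in when the medium was given and in how long before collection it was removed, and these cannot be told apart.

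The level of a gene also differed between lines. Lines 1, 2 and 4 differ in passage too (12, 14 and 4), and line and passage cannot be told apart. Among the 18 treated libraries, the organoid line accounted for 46.0% of the variance of log2(CP20M + 1) of Dsg2 and for 38.3% of that of Dsc2, and for 1.22% in Evpl, where the treated group accounted for 82.7%. For Dsg2, line 1 was the lowest of the 3 lines in 6 of 6 treated groups, although the untreated library labelled line 1 was the highest of 4. For Dsc2, line 4 was the highest in 6 of 6 treated groups. For Dsp, line 2 was the lowest in 5 of 6 treated groups, line 1 was highest in 3 and line 4 in the other 3, and 35.0% of its variance was left after group and line. These are descriptions of 3 lines, with no test.

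**Figure D5:**
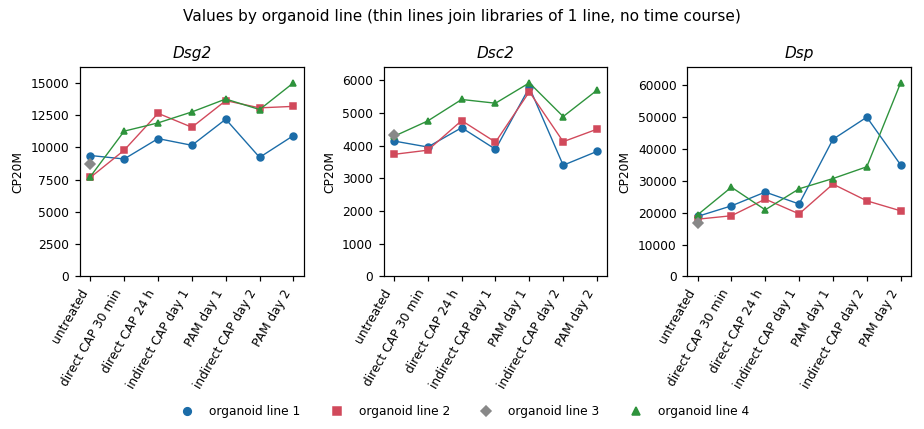
CP20M of Dsg2, Dsc2 and Dsp by organoid line in the 7 groups; thin lines join the libraries of 1 line and do not stand for time, and axes start at 0. Line 1 was lowest for Dsg2 in all 6 treated groups, line 4 highest for Dsc2 in all 6, and Dsp reached 60833 in line 4 and 20624 in line 2 with day 2 PAM.

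The promoters of Dsp and Jup are shown because these 2 of the 10 members were matched in a RefSeq table of promoters (GRCm38.p6, 32851 entries). Both genes encode plaque proteins, and the Pearson correlation of their values was 0.835 over 22 libraries. The 250 bases before each start are printed 5′ to 3′ on the gene's strand, and capitals mark GC boxes (GGGCGG on either strand).
Dsp, chr13:38151044-38151293, plus strand: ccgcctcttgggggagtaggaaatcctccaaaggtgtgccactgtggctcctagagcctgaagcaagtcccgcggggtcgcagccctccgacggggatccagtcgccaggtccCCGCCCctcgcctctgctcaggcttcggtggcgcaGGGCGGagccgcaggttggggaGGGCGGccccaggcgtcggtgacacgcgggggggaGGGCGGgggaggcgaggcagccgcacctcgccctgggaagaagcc
Jup, chr11:100397791-100398040, minus strand: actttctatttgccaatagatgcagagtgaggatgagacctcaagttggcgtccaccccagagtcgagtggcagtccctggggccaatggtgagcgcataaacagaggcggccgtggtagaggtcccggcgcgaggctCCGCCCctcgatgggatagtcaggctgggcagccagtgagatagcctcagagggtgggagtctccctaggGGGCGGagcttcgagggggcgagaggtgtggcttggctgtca
Both held the GC box, 4 times in Dsp and 2 times in Jup, and 32.7% of all promoter windows of this length held it. The CCAAT box (CCAAT on either strand) was found 2 times in Jup and 0 times in Dsp, against 33.8% of windows. Neither held TATAAA, the AP-1 motif TGANTCA or the Grainyhead-like motif AACCNGTT, which occurred in 12.4%, 6.75% and 1.79% of windows. These are letters in a window and say nothing of binding.

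Other genes of the desmosome differed widely in level. Of 9 on a fixed list, Dsg1a, Dsg1b, Dsc1 and Dsc3 were at 4 CP20M or less in every library and failed the filter. Pkp4 (2446 to 5358) and Perp (2100 to 5460), which encode a plakophilin relative and a desmosomal membrane protein, were abundant, and in the 3 day 1 groups together their log2 fold changes were 0.37 (SE 0.12, adjusted p = 0.0324) and 0.62 (SE 0.15, adjusted p = 0.00702). Dsg4 (1.31, SE 0.28, adjusted p = 0.00327) and Cdsn, which encodes corneodesmosin (1.47, SE 0.37, adjusted p = 0.008), were called higher, and Dsg1c was called lower (-1.56, SE 0.37, adjusted p = 0.00592). These 3 genes are at 0 to 48 CP20M throughout, and each passed the filter only with the help of the group in which it is high (treated for Dsg4 and Cdsn, untreated for Dsg1c). Dsg1c was at 11 to 25 in untreated organoids, 9 to 25 after 30 min direct CAP and 0 to 3 with day 2 PAM, where Dsg3 was at 58 to 90.

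Genes of the neighbouring structures, from lists fixed for this comparison, were read in the same test of the 3 day 1 groups. Of 11 adherens junction genes limma called 0. At an unadjusted p under 0.05 were 10 of these 11, 8 of the 10 desmosome genes and 44.1% of all genes. The adherens junction genes had a median log2 fold change of 0.30, with 0.30 (SE 0.08, adjusted p = 0.0131) for Cdh1, the E-cadherin gene, and 0.33 (SE 0.09, adjusted p = 0.0145) for Ctnnb1, the beta-catenin gene. Of the 11, 9 had a positive log2 fold change, and the lowest was -0.584. Of 7 plakins and hemidesmosome genes tested 1 was called, Itgb4, a hemidesmosome integrin, at 1.04 (SE 0.17, adjusted p = 0.000731), and the list's median was 0.72. Among keratins, the filaments that desmosomes hold, Krt7 (1.40, SE 0.24, adjusted p = 0.000921) and Krt5 (1.78, SE 0.26, adjusted p = 0.000439) were the 2 called of 8 tested, and Krt8, Krt18 and Krt19 stood at 0.59, 0.82 and 0.60.

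Genes of stratified and cornified epithelium were read in the same way. Of 7 cornified envelope genes tested, Ivl (3.75, SE 0.75, adjusted p = 0.00226), Scel (1.35, SE 0.33, adjusted p = 0.0068) and Tgm5 (1.58, SE 0.35, adjusted p = 0.00403) were called higher and 0 lower. Each of these 3 passed the filter only through the treated libraries (untreated 0 to 19, 4 to 16 and 3 to 9 CP20M), so for them a lower call was not open. The 6 squamous markers (Krt5, Krt14, Krt6a, Krt13, Krt4 and Trp63) summed to 97 to 356 CP20M untreated and 1610 to 3993 with day 1 PAM, largely Krt4, which ranged from 81 to 3878 and was called higher (3.15, SE 0.35, adjusted p = 5.2e-05). Trp63, the master regulator of stratified epithelium, was at 7 CP20M or less in every library, and Krt5 at 65 or less. Of 10 transcription factor genes tested, Grhl3 (1.78, SE 0.22, adjusted p = 0.000135), Klf4 (1.13, SE 0.26, adjusted p = 0.00487) and Zfp750 (1.80, SE 0.26, adjusted p = 0.000327) were called higher and Ovol2 lower (-1.33, SE 0.24, adjusted p = 0.00133). The part of any other cell type in the desmosome values was not tested.

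Over the 22 libraries, which share lines and treatment groups, the 10 genes were also compared with the 19369 genes that passed the filter, by Pearson correlation of log2(CP20M + 1) and with no test. Dsg2 and Dsp were most like their antisense neighbours Gm16090 (0.989) and Gm10129 (0.993). Dsg3 was most like Ncmap (0.966), Pgpep1 (0.962) and Maml2 (0.957), and Grhl3 was 10th (0.947). Jup was most like Med15 (0.959) and Cdh1 (0.95), Pkp3 like Otud7b (0.965) and Src (0.958), Ppl like Ahnak (0.942), Evpl like Wnt6 (0.901), Dsc2 like Tdrd7 (0.909), Pkp2 like Capza2 (0.916) and Pkp1 like Eef2k (0.837). Within the 10, the closest pairs were Pkp3 with Jup (0.887), Dsg3 with Ppl (0.856), Dsp with Jup (0.835) and Dsg2 with Dsg3 (0.81), and Pkp1 ran against Pkp2 (-0.663) and Pkp3 (-0.619).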

How the data were processed

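Bulk RNA-seq libraries (22) came from mouse duodenal organoids, with 4 controls and 3 libraries per CAP treatment. Per the labels, the authors trimmed reads with Trimmomatic 0.36, aligned them with STAR 2.5.3a to GRCm38 and counted them with HTSeq 0.9.1, and they tested counts with edgeR. Each deposited value is a score, CP20M, for which the authors scaled the reads of a gene to a library of 20 M and rounded up, with gene length left out (the study's legends define it per kilobase, but low values of all genes step by the same amount). As these are not raw counts, tests for counts were not run. Reads per library were estimated from the spacing of low values at 19.4 to 28.7 M. A CP20M of 10 is therefore close to 10 reads, and Dsg3 in untreated libraries carries a large counting error. Positions and exonic lengths came from GENCODE vM21, in which 52489 of 52636 Ensembl identifiers were found.

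Values were tested as log2(CP20M + 1) with limma 3.58.1 in R 4.3.3 (trended moderated test), for genes that reached 10 CP20M in 3 or more fitted libraries, with Benjamini-Hochberg adjustment over all genes. The method was tested on simulated data. In all, 14 comparisons were made, each fitted on its own groups. Figures were drawn with Python 3.11.15 and matplotlib 3.10.9. Samples of the same number come from the same organoid line and thus the same mouse, and their deviations from group means correlated (median 0.536 within and -0.306 between lines), so the line served as a block in an alternative. Against untreated, that block takes line 3 out of the fold change, since line 3 has no treated library. Among 24 replicate pairs no copies were found. Each library is 1 culture of 1 line, so p-values measure the spread between lines and cultures. The comparison of the 3 day 1 groups together also mixes their treatments. Its 9 treated libraries come from 3 lines and were fitted as independent, so its p-values do not measure the spread between lines alone. The alternatives were quantile normalization, the line block, a joint fit of all 7 groups, omitting the filter, a pseudocount of 10, calling at an adjusted p under 0.05 whatever the fold, and leaving out each library. The genes named are the 10 members, fixed lists of junction, keratin, cornified envelope, transcription factor and cell type marker genes, and the genes most correlated with each member. The members and lists were chosen with earlier results of these data known.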

Additional observations from a re-analysis of the deposited data

Results flagged for a closer look

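In untreated organoids the ratio of Evpl to Ppl per length stood apart in 1 library. It was 0.729 in line 1 and 0.407 to 0.423 in lines 2 to 4, and the gap was 0.951 of the whole range. Line 1 had both the highest Evpl and the lowest Ppl of the 4 untreated libraries. Of the 21 quantities checked this way in the 4 untreated libraries (10 genes and 11 ratios) this was the 1 that stood apart, and chance alone gives about 1 in 20.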

How the results depend on the processing

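Depth limited Dsg3 most, since its untreated values of 2 to 20 CP20M are close to read counts. Under the planned settings other than leaving out a library, 420 values were recomputed (70 log2 fold changes of named genes). Of these, 384 kept direction and call, 34 gained a call and 2 changed sign. The 70 fold changes were those of all members in the 3 day 1 groups together. From the other comparisons, only those with an unadjusted p under 0.05 by limma were taken, so the tally does not describe all results. The looser level (adjusted p under 0.05 whatever the fold) reads the same fit and can only add calls. It gave most of the 34 gains, which therefore say little about stability. Leaving out 1 library kept 507 of 532 and took the call from 4 of the 70 results, most of which had no call to lose. Calls were lost for Ppl in the 3 day 1 groups together, and for Dsg3 after 24 h direct CAP and in both day 2 groups. The calls kept in every such fit were Dsg3 in the 3 day 1 groups together and Dsg3, Evpl and Ppl with day 1 PAM. Calling at an adjusted p under 0.05 whatever the fold gave 7 genes in the 3 day 1 groups together, 5 after 24 h direct CAP, 4 with indirect CAP and 8 with day 1 PAM, and 6 and 8 with day 2 indirect CAP and day 2 PAM. With the replicate block by line, day 1 indirect CAP had 1 gene past the threshold (Dsg3) in place of 0, as it had with all 7 groups in one fit, and the block changed no other call. A fit of all 7 groups also called 1 gene, Evpl, between day 2 PAM and day 1. A block with the untreated lines 1 and 2 crossed, chosen after seeing the data, called 1 gene (Dsg3) both after 30 min direct CAP and with day 1 indirect CAP. Leaving out 1 library gave 1 to 3 genes in the 3 day 1 groups together, 0 to 1 after 24 h direct CAP, 0 to 2 with day 2 indirect CAP and 0 to 1 with day 2 PAM. Only values near 0 changed sign. The log2 fold change of Pkp2 in the 3 day 1 groups was 0.031 under quantile normalization, 0.016 with either block and between -0.032 and 0.016 without single libraries, and that of Pkp1 was between -0.098 and 0.20 without single libraries. The causes were not tested.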

Other observations

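Markers of the other intestinal cell types, from fixed lists, were read in the same comparison of the 3 day 1 groups with untreated. Of 4 goblet cell markers 1 was called higher, Clca1 (log2 fold change 1.51, adjusted p = 0.00702). Of 4 leukocyte markers 2 were tested and 1 was called higher, Cd68 (1.35, adjusted p = 0.000427). The other one tested went the other way (-1.24, adjusted p under 0.05), without a call. The leukocyte list summed to 94 to 227 CP20M over all libraries. Of the markers tested, limma called 0 of 6 enterocyte, 0 of 3 Paneth, 0 of 3 enteroendocrine, 0 of 2 tuft and 0 of 1 endothelial. Of these, 1, 2, 3, 1 and 0 had an unadjusted p under 0.05, against 44.1% of all genes. The tuft and endothelial lists hold 3 genes each, and the rest failed the filter. Goblet markers summed to 72777 to 128934 CP20M untreated and 17348 to 45771 with day 2 PAM, where enterocyte markers summed to 133155 to 171905 against 87297 to 105791 untreated. Of the 6 enterocyte markers, only 2 had a positive log2 fold change with day 2 PAM. The list's median was -0.423 (range -1.32 to 1.42), so the sum does not stand for most of its genes. Day 2 PAM was the group in which Pkp1 lay below and Pkp2 and Pkp3 above all untreated libraries. The part of these cell types in the desmosome values was not tested.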
